A study of Macaca mulatta with 6 samples.

Results

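The enzymes that carry mevalonate to squalene epoxide are MVK, PMVK, MVD, IDI1, FDPS, FDFT1 and SQLE. In rhesus macaque luteal cells treated with T0901317, FDFT1 fell by 0.55 ± 0.08 on the log2 scale against DMSO (1.47-fold lower; SE from limma, n = 3 pairs; limma adjusted p = 0.028). The other 6 genes did not pass the test, and on their brightest probe sets they had changes between -0.54 (SQLE) and 0.0070 (MVK). All 14 probe sets of the enzymes varied more between vehicle replicates than with treatment, a comparison that was not made over all probe sets. Vehicle levels were highest in replicate 1 on 13 of the 14, against 24.8% of all probe sets.

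The genes were chosen by symbol in the platform annotation. They are 7 of 14132 named genes, and 14 of the 52766 probe sets tested carry their symbols. MVK and IDI1 have 3 probe sets each, MVD, FDFT1 and SQLE have 2 each, and PMVK and FDPS have 1 each. All 14 probe sets had a mean level above 4.63, a reference for dim signal set by Bacillus control probe sets. Where a gene has several probe sets, the brightest stands for it. No coordinates are stated, since no source names the build of the array design.

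These enzymes are the middle of cholesterol synthesis. Kinases and a decarboxylase turn mevalonate into isopentenyl diphosphate, which is built into farnesyl diphosphate, the branch point for sterols, prenylated proteins, dolichol and ubiquinone. FDFT1 joins farnesyl units into squalene, which commits them to sterols, and SQLE oxidises squalene. The genes are classical targets of the transcription factor SREBP2, encoded by SREBF2, which is active when sterols in the endoplasmic reticulum are low. Liver X receptors (LXRs) are nuclear receptors that respond to oxidised cholesterol and drive cholesterol export. Luteal cells use cholesterol as the substrate of progesterone.

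The samples were 3 arrays of cells with 1 µM T0901317, a synthetic LXR agonist, and 3 arrays of cells with 0.1% DMSO, the vehicle. All cells were dispersed from corpora lutea of Macaca mulatta at day 12 after the surge of luteinizing hormone and cultured without serum, on fibronectin and with insulin, for the 24 h of treatment. The titles call the replicates biological and the design text calls them paired, and the series title asks for LXR targets. The p-values set the mean paired difference against the spread of the pair differences, which limma moderates over all probe sets. The labels do not say whether replicates are separate animals, so whether that spread covers differences between animals is unknown.

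The arrays carried the treatment. Of 5 LXR targets examined as a check, MYLIP, SREBF1, NR1H3 and LPCAT3 rose, by 1.07 to 2.39 on the log2 scale, and ABCA1 did not pass (0.47 ± 0.13; adjusted p = 0.88). Luteal genes were present, with STAR, which carries cholesterol into mitochondria, at a mean level of 10.9 with T0901317 and 11.0 with DMSO, and FDX1, an electron donor of steroid synthesis, at 11.3 with T0901317 and 11.2 with DMSO. HSD3B2 averaged 6.49 with T0901317 and 6.67 with DMSO; CYP11A1 and LHCGR were not analysed here. Macrophage markers were present too, with a median level of 8.91 to 10.0 in T0901317 arrays and 9.20 to 9.90 in DMSO arrays. In such bulk RNA, fewer cells of a type and less RNA per cell cannot be told apart. The gap between the 3' and 5' actin controls, which grows as RNA degrades, was 2.45 with T0901317 and 3.50 with DMSO in replicate 3, and 1.54 to 2.03 on the other 4 arrays.

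Among the 14 probe sets there was 1 that fell and 0 that rose, and 13 missed the threshold. Over all probe sets tested, 0.0246% fell and 0.0606% rose. Below 0 with an unadjusted p under 0.05 in limma were 4 of the 14, against 1.67% of all probe sets. The mean difference was below 0 on 13 of 14, against 48.6% of all. It was below 0 in each of the 3 pairs on 5 of 14, against 11.1% of all. The median difference was -0.15 over the 14 probe sets and 0.0044 over all probe sets. By gene, 1 of 7 fell, against 0.0637% of named genes, and 6 of 7 lay below 0, against 58.6%. In every pair 3 of 7 genes lay below 0, against 15.8% of named genes. On no probe set did the T0901317 arrays lie apart from the DMSO arrays, which 1.07% of all probe sets did in the downward direction.

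**Figure D1:**
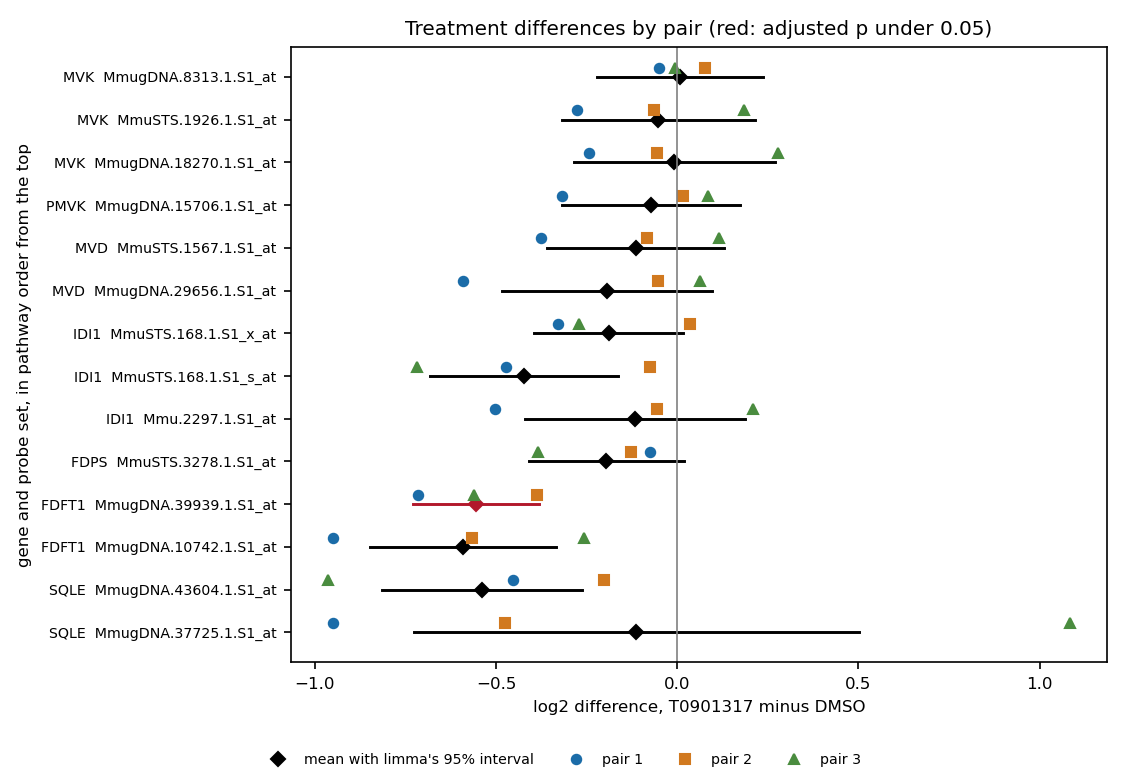
For each of the 14 probe sets in pathway order (vertical axis), the horizontal axis gives the log2 difference, T0901317 minus DMSO. Coloured symbols are the 3 pairs, and diamonds with lines are the mean and limma's 95% interval. The brighter FDFT1 probe set (red) is the 1 past the threshold, with pair values of -0.71, -0.39 and -0.56.

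The kinases and decarboxylase that activate mevalonate showed little difference. MVK, mevalonate kinase, phosphorylates mevalonate. Its brightest probe set (MmugDNA.8313.1.S1_at) had log2 levels of 7.21, 7.32 and 7.34 in T0901317 replicates 1, 2 and 3, against 7.26, 7.24 and 7.35 in the DMSO replicates. The groups overlapped and the difference was 0.0070 ± 0.10 (95% interval -0.22 to 0.24; adjusted p = 1.00). Both dimmer probe sets of MVK had -0.0076 and -0.05, with a lower level than DMSO in pairs 1 and 2 and a higher one in pair 3. The sign of the MVK value turned under several alternatives, all with differences near 0.

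PMVK, phosphomevalonate kinase, adds the next phosphate. Its probe set (MmugDNA.15706.1.S1_at) had 7.82, 7.82 and 7.30 with T0901317, against 8.13, 7.81 and 7.22 with DMSO. Replicate 3 was the lowest in both groups, and pair 1 alone showed a clear gap, of -0.32. The mean difference was -0.07 ± 0.11 (95% interval -0.32 to 0.17; adjusted p = 1.00), and 0.05 without replicate 1.

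MVD, the decarboxylase that makes isopentenyl diphosphate, had a similar pattern on both of its probe sets. The brighter one (MmuSTS.1567.1.S1_at) had 8.19, 7.73 and 8.15 with T0901317, against 8.56, 7.81 and 8.04 with DMSO. The dimmer one (MmugDNA.29656.1.S1_at) had 7.70, 7.21 and 7.13 with T0901317, against 8.29, 7.26 and 7.06 with DMSO. The vehicle array of replicate 1 stood above the other 5 arrays on both. The differences were -0.12 ± 0.11 and -0.19 ± 0.13 (adjusted p = 1.00 for each), with -0.38 and -0.59 in pair 1 and 0.11 and 0.06 in pair 3. Without replicate 1 they were 0.02 and 0.0057.

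Of the enzymes that handle isoprene units, neither passed. IDI1, isopentenyl diphosphate isomerase, makes the starter unit of chain building. Its brightest probe set (MmuSTS.168.1.S1_x_at) had 10.2, 9.19 and 8.58 with T0901317, against 10.5, 9.16 and 8.85 with DMSO. Replicate 1 was the highest in both groups, 3.01-fold above the lowest with T0901317 and 3.13-fold with DMSO. The treatment difference was -0.19 ± 0.09 (95% interval -0.40 to 0.02; adjusted p = 1.00), with -0.30 without replicate 2 and -0.12 without replicate 1.

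A further IDI1 probe set of the same target (MmuSTS.168.1.S1_s_at) had 9.37, 8.42 and 7.52 with T0901317, against 9.84, 8.49 and 8.24 with DMSO. All 3 pairs were below 0, with a mean of -0.42 ± 0.12 (unadjusted p = 0.0042; adjusted p = 0.85 in limma). Its name ending marks a probe set that can match several transcripts, as does that of the brightest one. The dimmest IDI1 probe set had 7.63, 6.97 and 5.88 with T0901317, against 8.13, 7.03 and 5.67 with DMSO, a difference of -0.12 ± 0.14. The 3 probe sets thus had the same sign in pair 1 (-0.33, -0.47 and -0.50) but not in pair 3 (-0.27, -0.72 and 0.21).

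FDPS, farnesyl diphosphate synthase, extends the chain to farnesyl diphosphate. Its probe set (MmuSTS.3278.1.S1_at) had 8.86, 8.72 and 8.15 with T0901317, against 8.93, 8.84 and 8.54 with DMSO. The T0901317 array was the lower of each pair, while the groups overlapped. The mean difference was -0.20 ± 0.10 (95% interval -0.41 to 0.02; adjusted p = 1.00), and -0.10 without replicate 3. Among the vehicle arrays FDPS varied 1.31-fold, at percentile 40.9 of all probe sets by SD, while the brightest probe set of IDI1 stood at percentile 97.2.

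The squalene-forming and squalene-oxidising enzymes had the 3 lowest values of the 14. FDFT1, squalene synthase, was read by its brighter probe set (MmugDNA.39939.1.S1_at) at 11.2, 10.3 and 10.1 with T0901317, against 12.0, 10.7 and 10.6 with DMSO. The T0901317 array was the lower of each pair, by similar amounts, and the SD of the pair differences was 0.16. The treated array of replicate 1 nevertheless lay above the vehicle arrays of replicates 2 and 3. The fall of 0.55 has a 95% interval of -0.73 to -0.38.

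The dimmer FDFT1 probe set (MmugDNA.10742.1.S1_at) had 9.74, 8.76 and 8.69 with T0901317, against 10.7, 9.32 and 8.95 with DMSO. It too was lower in 3 of 3 pairs, with differences of -0.95, -0.57 and -0.26. Its mean difference of -0.59 ± 0.12 was of like size but did not pass (unadjusted p = 3.3e-04; adjusted p = 0.19 in limma). It passed without replicate 3 (-0.76; adjusted p = 2.6e-12), a fit in which 328 probe sets passed, against 45 with all replicates. With a replicate left out, p-values rest mostly on limma's pooled spread, so smaller ones are no sign of stronger evidence. The mean of both probe sets had -0.57 (adjusted p = 0.0086 over named genes).

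The call of FDFT1 held in 6 of 11 alternatives, while its value ran from -0.64 to -0.47. It was lost without replicate 1 (-0.47; adjusted p = 0.37), without the replicate block (adjusted p = 1.00), without a trend of variance on level (adjusted p = 0.68), and after quantile normalization (-0.53; adjusted p = 0.071) or cyclic loess (-0.52; adjusted p = 0.053).

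SQLE, squalene epoxidase, inserts the oxygen that later becomes the sterol hydroxyl group. Its brighter probe set (MmugDNA.43604.1.S1_at) had 10.1, 8.78 and 7.63 with T0901317, against 10.6, 8.99 and 8.59 with DMSO. Each pair was lower with T0901317, with differences of -0.45, -0.20 and -0.96, and replicate 1 was the highest in both groups. The mean difference was -0.54 ± 0.13 (95% interval -0.82 to -0.26; unadjusted p = 0.0012; adjusted p = 0.47 in limma). It passed without replicate 2 (-0.71; adjusted p = 0.043), and was -0.33 without replicate 3 (adjusted p = 0.079).

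The dimmer SQLE probe set (MmugDNA.37725.1.S1_at) disagreed in pair 3. It had 6.996, 6.75 and 5.51 with T0901317, against 7.95, 7.23 and 4.42 with DMSO. The vehicle array of replicate 3 was the lowest of the 6 and the 1 below the reference for dim signal. The pairs had -0.95, -0.48 and 1.08, with a mean of -0.11 ± 0.28. Without replicate 3, a fit in which 328 probe sets passed, the value was -0.71 (adjusted p = 1.2e-04 in limma). That replicate also had the widest gaps between 3' and 5' actin controls. With the mean 3' minus 5' difference of actin, GAPDH and EF1a as a covariate, this probe set had -0.57 (adjusted p = 0.034), the brighter SQLE probe set -0.41 (adjusted p = 0.069) and FDFT1 -0.57 (adjusted p = 2.6e-04). That fit has 1 residual degree of freedom fewer than the paired fit alone. The covariate differed between T0901317 and DMSO by 0.16, -0.08 and -0.59 in pairs 1, 2 and 3, so it mostly marks pair 3. RNA quality cannot be told apart here from other traits of replicate 3, and its part was not tested.

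**Figure D2:**
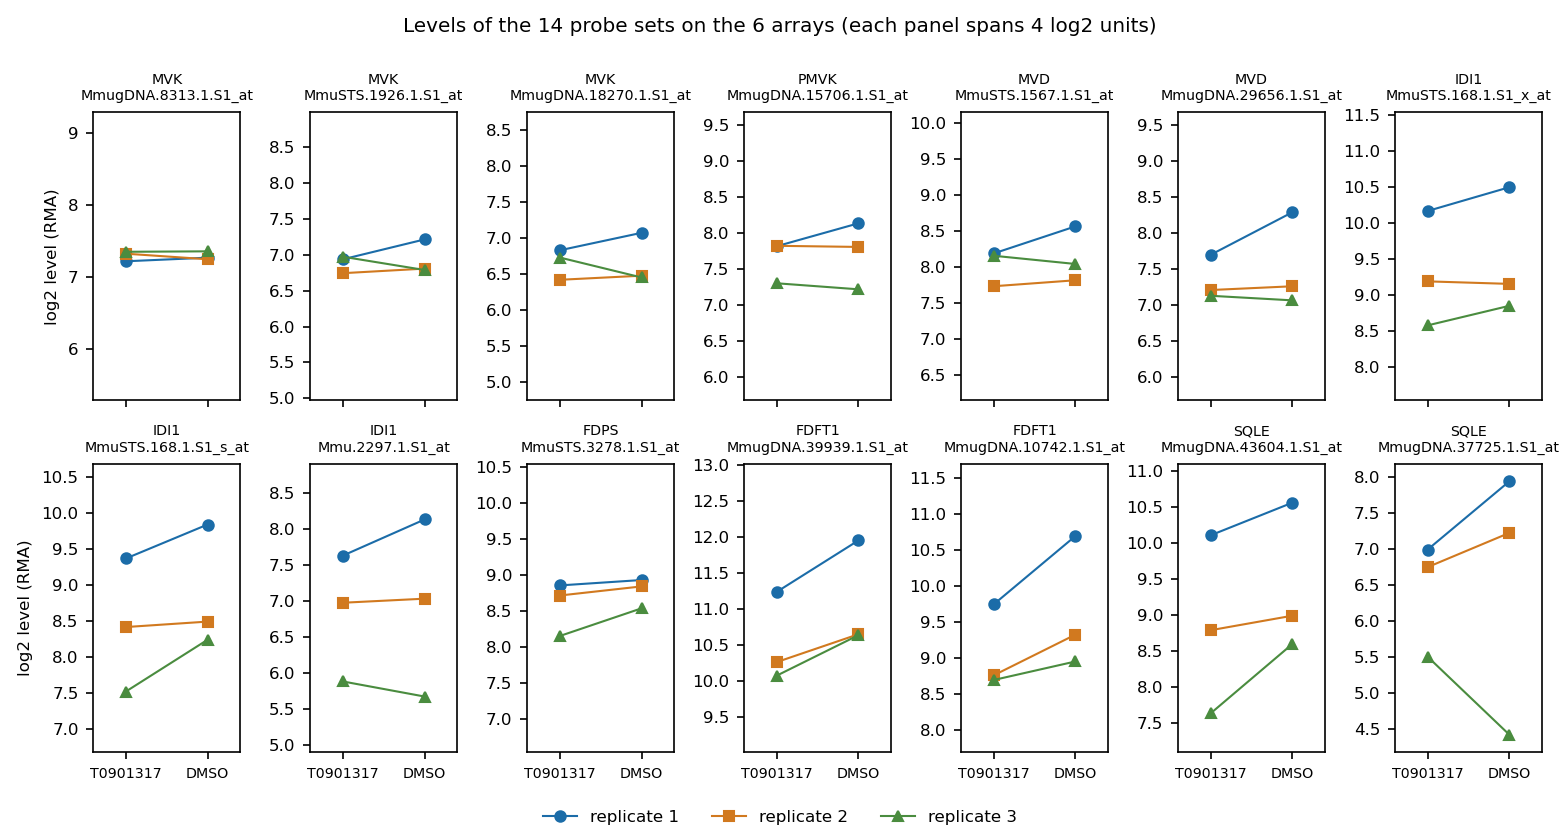
Log2 levels (vertical axis) of the 14 probe sets in T0901317 and DMSO arrays (horizontal axis), 1 panel per probe set. Lines join the arrays of a pair, with no error bars since each point is 1 array. All 4 lines of replicate 1 for FDFT1 and SQLE slope from a higher DMSO level, and the dimmer SQLE probe set crosses over in replicate 3, with 5.51 in T0901317 and 4.42 in DMSO.

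The pairs did not contribute equally. In pair 1 all 14 probe sets were below 0, with a median of -0.41, against 50% of all probe sets and a median near 0. In pair 2, 11 of 14 were below 0 with a median of -0.07, against 52.7% of all and a median of -0.01. In pair 3, 7 of 14 were below 0 with a median of 0.03, against 46.5% of all and a median of 0.02. The 6 measured markers of luteal steroidogenic cells had median changes of -0.26, -0.03 and 0.0076 in pairs 1, 2 and 3. On their brightest probe sets the 7 enzymes had medians of -0.33, -0.08 and -0.27. The 3 pericyte and smooth muscle markers had medians of -0.35, -0.14 and -0.40, and all 3 had a mean difference below 0. Of neutrophil and blood markers 4 of 5 lay below 0 (median -0.30), of T and NK cell markers 3 of 3 (-0.19), of fibroblast markers 4 of 4 (-0.13) and of macrophage markers 5 of 6 (-0.05). Of endothelial markers 7 of 8 lay above 0 (median 0.22). Of luteal markers 4 of 6 lay below 0. Over all these lists 24 of 35 markers lay below 0, against 58.6% of named genes. Past the threshold were 0 of 35, and 8 had an unadjusted p under 0.05 in limma, against 527 of 14132 named genes. KDR, CD7 and PPBP had mean levels below the reference for dim signal. The part of these cell types in the values of the pathway genes was not tested.

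Between replicates, 11 of the 14 probe sets varied more than the median probe set, and FDPS and 2 probe sets of MVK varied less. The SD over the 3 vehicle arrays had a median of 0.71 for the 14 probe sets and 0.24 for all probe sets, and 8 of the 14 lay above the 90th percentile of all. Marker lists of T and NK cells (median SD 0.91), fibroblasts (0.71), macrophages (0.68) and pericytes and smooth muscle (0.66) had spreads of like size, while luteal (0.36) and endothelial markers (0.32) had smaller ones. Replicate 1 had the highest vehicle level on 13 of 14, against 24.8% of all probe sets, and the highest T0901317 level on 11 of 14, against 22.2%. The exception among vehicle arrays was the brightest MVK probe set, which varied 1.08-fold. The median level of luteal markers was also highest in replicate 1. It was 7.96, 7.23 and 7.34 in DMSO replicates 1, 2 and 3, and 7.60, 7.16 and 7.24 with T0901317. The luteal list was split, with HSD3B2, FDXR and INHA highest in replicate 1 in both groups. STAR and FDX1 were highest in replicate 2 in both groups, and PRLR in replicate 3. STAR had 10.97, 11.48 and 10.54 in DMSO replicates 1, 2 and 3. The median level of pericyte and smooth muscle markers was highest in replicate 1 in both groups too. The other marker lists were highest in replicate 2 or 3. From the highest to the lowest vehicle array, FDFT1 varied 2.49-fold, IDI1 3.13-fold and SQLE 3.90-fold on their brightest probe sets. On each of the 14 probe sets this range exceeded the size of the treatment difference. The share of all probe sets with such an excess was not counted, and their median range was 0.47. The excess is therefore not shown to be particular to these genes. These ranges are a description, and differences between replicates were not tested.

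**Figure D3:**
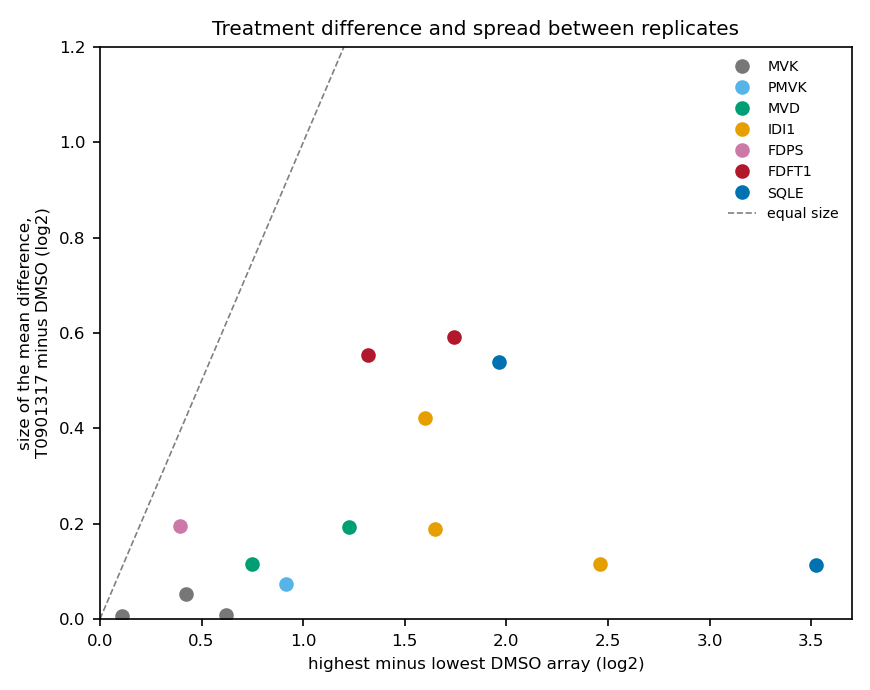
Size of the mean treatment difference (vertical axis, log2) against the gap between the highest and the lowest DMSO array (horizontal axis, log2) for the 14 probe sets, coloured by gene. All points lie under the dashed line of equal size, and the share of all probe sets that do so was not counted. The FDFT1 points have differences of 0.55 and 0.59 beside gaps of 1.32 and 1.74.

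Across the 6 arrays, FDFT1 moved with SQLE (Pearson r = 0.94) and IDI1 (r = 0.93). The probe sets of MVK disagreed, with r = -0.61 for the brightest, which varied 1.08-fold among vehicle arrays, and r = 0.74 and 0.77 for the dimmer ones. These values describe 6 arrays that share 3 replicates, so they mostly follow the replicates. Outside the 7 genes, the closest to FDFT1 among 12257 named genes above the dim reference were CYP51A1 and HSD17B7, both enzymes of later sterol steps, followed by GCN1, LOC710478 and GART (r = 0.99 for each). The closest to the mean of the 7 were PAIP1 (r = 1.00), NSDHL, a sterol dehydrogenase, U2AF2, SCD5 and AMMECR1 (r = 0.99 for the last 4). Over so few arrays, 416 genes exceeded r = 0.9 with FDFT1 and 822 with the mean.

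Enzymes that follow the 7 were described by a fixed list. Of the steps from squalene epoxide to cholesterol, 8 genes were measured, and 0 rose and 0 fell. Their median was -0.22, with 6 of 8 below 0, against 58.6% of named genes. In every pair 4 lay below 0, against 15.8% of named genes. At unadjusted p under 0.05 in limma were 4, against 527 of 14132 named genes. CYP51A1, which removes a methyl group from lanosterol, had 10.1, 9.17 and 8.90 with T0901317, against 10.8, 9.59 and 9.35 with DMSO. Its T0901317 array was the lower of each pair, and the difference of -0.51 ± 0.09 did not pass (adjusted p = 0.070). It passed in 3 of 11 alternatives, among them the fit without replicate 3 (-0.55), in which 328 probe sets passed. EBP, a sterol isomerase, had -0.36 ± 0.09 (adjusted p = 0.49) and HSD17B7, a sterol ketoreductase, -0.35 ± 0.09 (adjusted p = 0.67).

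In the isoprenoid branch, which draws on farnesyl diphosphate without making sterols, 13 genes were measured and 0 rose and 0 fell. Their median was -0.04, beside -0.02 over all named genes, and 10 lay below 0, against 58.6% of named genes. The largest values were those of PDSS2, a subunit of the enzyme that makes the ubiquinone tail (-0.30 ± 0.13), ZMPSTE24, a protease of prenylated proteins (-0.15 ± 0.10), and FNTB, a farnesyltransferase subunit (-0.10 ± 0.10; adjusted p = 1.00 for each). At unadjusted p under 0.05 in limma there was 1 gene, PDSS2. In replicate 3 it lay below the reference for dim signal, at 4.17 with T0901317 and 4.57 with DMSO. That pair had its largest difference, -0.40.

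The regulators and other targets of SREBP2 had 13 measured genes, of which 1 rose and 0 fell. RNF145, a sterol-responsive E3 ligase, had 11.9, 11.7 and 11.5 with T0901317, against 11.5, 11.3 and 10.9 with DMSO. Its T0901317 array was the higher of each pair, and it rose by 0.47 ± 0.07 (adjusted p = 0.036), while its dimmer probe set had -0.03. This call was lost in 7 of 11 alternatives, among them the fits without replicate 1 (adjusted p = 0.21) and with the mean of both probe sets (0.22; adjusted p = 0.67). TMEM97, a sterol-responsive membrane protein, had -0.24 ± 0.09 and STARD4, a sterol carrier, -0.16 ± 0.10 (adjusted p = 1.00 for each).

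The SREBP2 control genes themselves did not pass. SREBF2 had 8.52, 8.40 and 8.52 with T0901317, against 8.71, 8.46 and 8.23 with DMSO. Its groups overlapped and the difference was 0.01 ± 0.11 (95% interval -0.22 to 0.25). SCAP, which escorts SREBP2 to the Golgi, had 0.05 ± 0.09, INSIG1, which holds that complex back, 0.02 ± 0.07, and INSIG2 0.05 ± 0.09 (adjusted p = 1.00 for each). The list's median was 0.02.

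**Figure D4:**
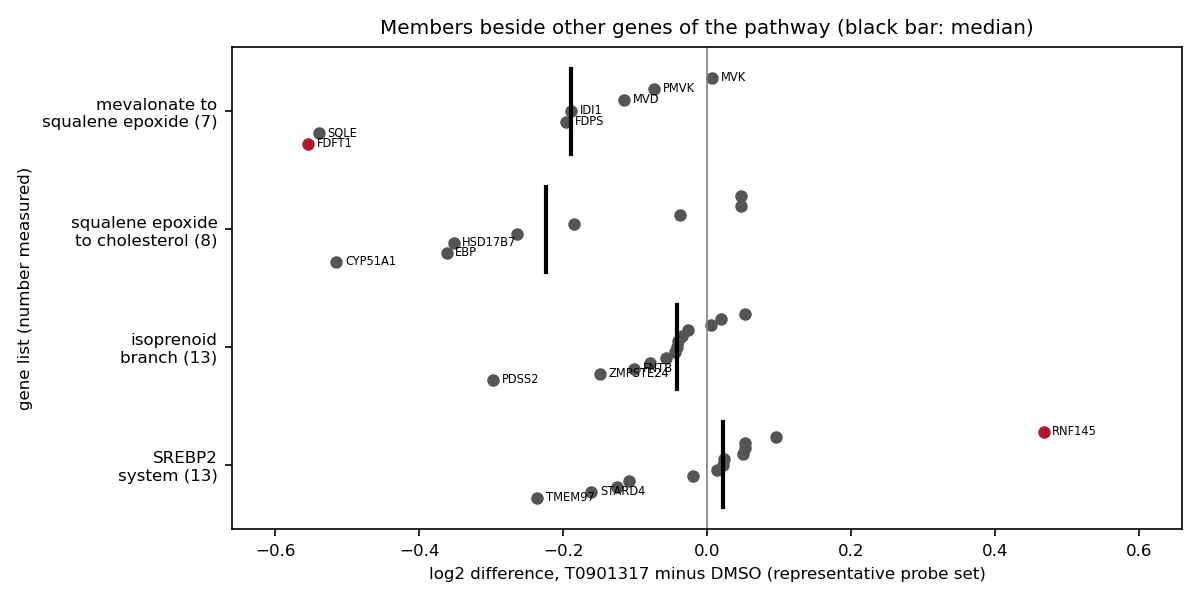
Log2 differences between T0901317 and DMSO on the representative probe sets (horizontal axis) for the 7 enzymes and 3 other lists (vertical axis, with the number measured). Each point is a gene, and black bars are medians. Red points, those past the threshold, are FDFT1 at -0.55 and RNF145 at 0.47, and the medians from the top are -0.19, -0.22, -0.04 and 0.02.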

How the data were processed

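The deposited values are log2 levels of probe sets, made by the authors with RMA per the submitters' processing notes, with no version stated. They run from 1.81 to 14.7. The array medians were 5.57 to 5.71 with T0901317 and 5.54 to 5.70 with DMSO. The number of arrays limits precision, and no scan dates were used here.

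After 99 control probe sets were left out, 52766 were tested with limma 3.58.1 in R 4.3.3 as T0901317 minus DMSO. Replicate number entered as a block, and eBayes used a variance trend. Two-sided p-values were adjusted over all probe sets (Benjamini-Hochberg, threshold 0.05). With 3 pairs, no exact sign-flip p can go below 0.25, so SEs and intervals rest on limma's pooled spread. The pairing comes from the design text; deviations from group means correlated at 0.66, 0.81 and 0.83 between same-numbered arrays. The fit was tested on simulated data with independent noise. Recovery was required only for the largest added change, which exceeded that of FDFT1, so the test does not bear on calls of that size.

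Symbols came from the platform annotation, and 14 of 14 gene numbers were in the RefSeq table of rhesus macaque. The genes and lists were chosen with earlier results of these data known. Each of the 7 genes is described on all of its own probe sets. From each list come the genes past the threshold and the 3 of largest change, and to these are added the 5 most correlated with FDFT1 and with the mean of the 7. INSIG1, INSIG2, SCAP, SREBF2 and DHCR7 were named after their values were seen.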

Additional observations from a re-analysis of the deposited data

How the results depend on the processing

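Over 11 alternatives, IDI1, FDPS, FDFT1 and SQLE stayed below 0 on their brightest probe sets and as means of their probe sets. FDFT1 alone was called among the 7 genes, and the count was 0 without the replicate block, after quantile normalization, after cyclic loess and without a variance trend, and 0 to 2 when a replicate was left out. Over the 14 probe sets it was 0 under the same 4 alternatives, 3 with the RNA quality covariate and 0 to 3 with a replicate left out. Of pathway genes outside the 7, 1 was called (RNF145), against 0 under those 4 and after median centring, 4 with the covariate, and 0 to 3 with a replicate left out. Over all probe sets, 45 were called, against 0 without the block, 27 after quantile normalization, 27 after cyclic loess, 11 without a trend, 206 with the covariate, and 35 to 328 with a replicate left out. Of the 5 LXR targets 4 rose, against 0 without the block and 3 without a trend. The block removes the spread between replicates from the error; the other causes were not tested.

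Signs turned for values not called in the paired fit, most of them near 0. MVK had -0.016 after median centring and -0.017 as the mean of its probe sets, and -0.028 to 0.036 with a replicate left out. Its dimmest probe set had 0.039 after quantile normalization, and -0.15 to 0.11 with a replicate left out; the other dimmer one had -0.17 to 0.060. With a replicate left out PMVK had -0.15 to 0.050 and MVD -0.23 to 0.016, with -0.32 to 0.0057 on its dimmer probe set. Likewise the dimmest IDI1 probe set had -0.28 to 0.077 and the dimmer SQLE probe set, which was called without replicate 3 and with the covariate, -0.71 to 0.30. STARD4 had 0.038 as the mean of its probe sets. The fit without dim probe sets and that on genes as means of probe sets kept the FDFT1 call. The count over all probe sets has no value for genes as means.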

Other observations

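Later enzymes of cholesterol synthesis also differed between replicates. Over the 3 vehicle arrays the SD had a median of 0.64 for the 8 measured genes from squalene epoxide to cholesterol, beside 0.24 over all probe sets and 0.25 for the isoprenoid branch. DHCR7, which makes cholesterol from its last precursor, had 8.46, 7.25 and 6.97 with T0901317 replicates 1, 2 and 3, against 8.94, 7.32 and 6.54 with DMSO. Replicate 1 was the highest and replicate 3 the lowest in both groups, a 5.25-fold range among vehicle arrays, while the treatment difference was -0.04 ± 0.15 (adjusted p = 1.00 in limma). INSIG2 varied 3.03-fold among vehicle arrays with replicate 2 highest, at 9.30 with T0901317 and 9.24 with DMSO.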
